A study of Homo sapiens with 4 samples.

Results

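S100 proteins are small calcium-binding proteins, and 10 of their genes were followed here through 2 cancer cell lines treated with inhibitors of epigenetic silencing: S100A2, S100A3, S100A4, S100A6, S100A10, S100A11, S100A13, S100A14, S100A16 and S100P. They were picked by name from the 40877 single-gene names of the deposited gene table with their measured levels in these libraries known, so those levels and ratios are a description of the chosen genes. The libraries came from HCT116, derived from a human colorectal carcinoma, and H1299, derived from a human non-small cell lung carcinoma, both at passage 5 to 10. Both lines received either the solvent DMSO or decitabine, a DNA methyltransferase inhibitor (DAC, 500 nM for 72 h), together with the histone deacetylase inhibitor SB939 (500 nM for 18 h), with medium renewed every 24 h. The combination is called DAC+SB, libraries that received it treated, and libraries with DMSO control. Cells of each line under each condition formed 1 single-cell library, 4 in all, made with a 5′ chemistry that reads polyadenylated RNA from the transcript start. No combination had a replicate, so no difference between libraries was tested, and every interval below covers counting error only.

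Most S100 proteins carry a pair of EF hands, the helix-loop-helix motif that holds calcium, and work as dimers that grip a partner protein when calcium rises. Partners include annexins at membranes, the heavy chain of non-muscle myosin and the cytoskeletal linker ezrin, and several family members act outside the cell through the receptor for advanced glycation end products. Most of the human genes sit side by side on the long arm of chromosome 1, next to the genes of epidermal differentiation. In carcinomas, individual members are known both as epithelial genes and as genes of invasive or mesenchymal cells, and DNA methylation of their promoters has long been studied.

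By the GENCODE v29 annotation of GRCh38, 9 of the 10 genes lie on the minus strand of chromosome 1. S100A6 (chr1:153534599-153536244), S100A4 (chr1:153543613-153550136), S100A3 (chr1:153547329-153549372), S100A2 (chr1:153561108-153567890), S100A16 (chr1:153606886-153613145), S100A14 (chr1:153614255-153616986) and S100A13 (chr1:153618787-153631360) share a span of 96.8 kb. S100A11 (chr1:152032506-152047907) and S100A10 (chr1:151982915-151994390) form a separate pair 38.1 kb apart, and 1486.7 kb lie between S100A11 and S100A6. S100P lies alone on the plus strand of chromosome 4 (chr4:6693069-6697170). A transcript of S100A4 runs across S100A3 on the same strand, and S100A13 overlaps S100A1 on the opposite strand, so counts of these pairs could be split between the overlapping genes. Strand use in the counting is not stated in the sources used here.

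Bases before the transcription starts are shown because DAC, once built into DNA, traps the enzymes that keep CG dinucleotides methylated, and because these genes differed in how they changed. The RefSeq table (GRCh38.p14) gave 14 windows of 250 bases before a start for all 10 genes. The S100A6 and S100A10 windows each held 24 CG, more than 76.3% of the 35116 windows of that table, whose median was 11. The windows of S100A4, S100A14 and S100P held 7, 4 and 4 CG, more than 41.1%, 29.3% and 29.3% of all windows. The 2 listed starts of S100A16 had 1 and 6 CG before them, and S100A11 had 15. Stretches outside every annotated exon are printed below for S100A4, S100A14, both starts of S100A16, and S100A11. For S100A6 and S100P only the last 30 bases before the start are printed, since annotated exons of longer transcripts cover their windows. Each runs 5′ to 3′ on the strand of its gene, with CG in capitals.
S100A6 (chr1:153535992-153536021, minus strand): tataaggccagtCGgactgCGacacagccc
S100P (chr4:6693848-6693877, plus strand): cttataaagcaccaagaggctgccagtggg
S100A4 (chr1:153545886-153546056, minus strand): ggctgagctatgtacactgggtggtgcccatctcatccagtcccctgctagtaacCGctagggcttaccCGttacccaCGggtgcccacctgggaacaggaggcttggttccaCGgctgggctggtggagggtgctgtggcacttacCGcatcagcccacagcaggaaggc
S100A14 (chr1:153616356-153616575, minus strand): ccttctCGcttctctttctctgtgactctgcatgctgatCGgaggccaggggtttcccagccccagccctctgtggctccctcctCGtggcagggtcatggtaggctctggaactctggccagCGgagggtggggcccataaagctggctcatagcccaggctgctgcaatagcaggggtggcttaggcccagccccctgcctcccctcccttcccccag
S100A16, other start (chr1:153609356-153609605, minus strand): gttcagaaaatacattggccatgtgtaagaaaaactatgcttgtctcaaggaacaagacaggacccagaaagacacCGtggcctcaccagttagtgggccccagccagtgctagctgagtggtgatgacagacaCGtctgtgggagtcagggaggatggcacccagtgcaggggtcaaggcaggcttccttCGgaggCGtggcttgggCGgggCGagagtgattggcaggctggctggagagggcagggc
S100A16 (chr1:153613146-153613387, minus strand): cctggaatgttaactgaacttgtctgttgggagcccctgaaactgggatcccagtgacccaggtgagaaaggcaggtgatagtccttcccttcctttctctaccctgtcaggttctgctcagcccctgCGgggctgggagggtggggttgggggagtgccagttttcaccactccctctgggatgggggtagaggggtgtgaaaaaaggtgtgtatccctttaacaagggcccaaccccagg
S100A11 (chr1:152037036-152037254, minus strand): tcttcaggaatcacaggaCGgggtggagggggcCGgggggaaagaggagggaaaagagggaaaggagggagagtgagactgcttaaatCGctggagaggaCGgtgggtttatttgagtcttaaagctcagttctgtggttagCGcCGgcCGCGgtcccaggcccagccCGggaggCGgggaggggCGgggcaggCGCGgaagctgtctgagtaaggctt

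Motifs were searched on both strands as exact letters in each 250-base window. The letters TATAA, the core of a TATA box, occurred in 18.93% of all windows and were found before S100A6, S100A4, S100A14, S100P and one start of S100A13. GGGCGG, the box bound by Sp1, occurred in 42.64% of all windows. It was found 3 times before S100A6 and once each before S100A10, S100A11, S100A3, one start of S100A16 and one start of S100A13. TGANTCA, the AP-1 site, occurred in 6.57% of all windows and was found before S100A3 and before one start of S100A2. These matches describe the letters only, and no methylation or binding was measured.

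The libraries held between 3578 and 4327 cells and between 38927267 and 64524196 counts of genes and transposable elements (TE). The median count per cell ranged from 15784 to 17370 in 3 libraries and was 8449 in treated HCT116. The median mitochondrial share was 8.33% and 8.87% in H1299 and 15.8% and 18.6% in HCT116 (DMSO first), and the median TE share was 0.187% and 2.56% in H1299 and 0.277% and 5.01% in HCT116. Between 18 and 30 cell barcodes were shared by any pair of libraries. Levels are counts per 1000000 gene and TE counts (CPM), compared between libraries and not between genes. A gene was called at least 4-fold higher or lower only with 100 or more counts in the library where it was higher. A count of 0 was set to 3 counts, so that its ratio is a bound. Such a bound leaves out the counting error of the other library. The 10 HCT116 markers (epithelial genes such as EPCAM and CDX2) summed to 1.26 CPM in control H1299 and 191 CPM in control HCT116, and the 10 H1299 markers (mesenchymal genes such as VIM) to 3080 and 380 CPM.

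The untreated lines differed most at S100A6, S100A14, S100A4 and S100A16, all higher in HCT116. These 4 were the members at least 4-fold higher in HCT116 than in H1299 under DMSO, out of 9 with enough counts, against 8.11% of the 13796 genes compared. S100A6 and S100A14 had 0 counts in control H1299, so for them the call was fixed by the 100-count minimum. No member was at least 4-fold lower, against 9.92% of genes. S100A11 and S100A2 were lower in HCT116, with log2 ratios of -0.87 and -0.31, and S100A10 was higher by 0.25. S100A13 was lower (-0.65) under its own name, which holds 7.04% of the counts naming it in control H1299 and 2.96% in control HCT116, and higher (0.60) once those under a joined name were added. Under DAC+SB, S100A6 and S100A14 were at least 4-fold higher in HCT116, against 4.65% of 14875 genes. With each cell weighted equally, or over features listed in both lines, S100A6 alone was. Under DAC+SB no member was at least 4-fold lower, against 8.97%. The median log2 ratio of HCT116 over H1299 over the 10 members was 1.47 under DMSO and 0.19 under DAC+SB, beside -0.11 and -0.29 over all genes compared. Without S100P, which lacked the 100 counts under DMSO, the first was 1.49. The members were picked with these levels known, so the shares are not evidence about the family.

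**Figure D1:**
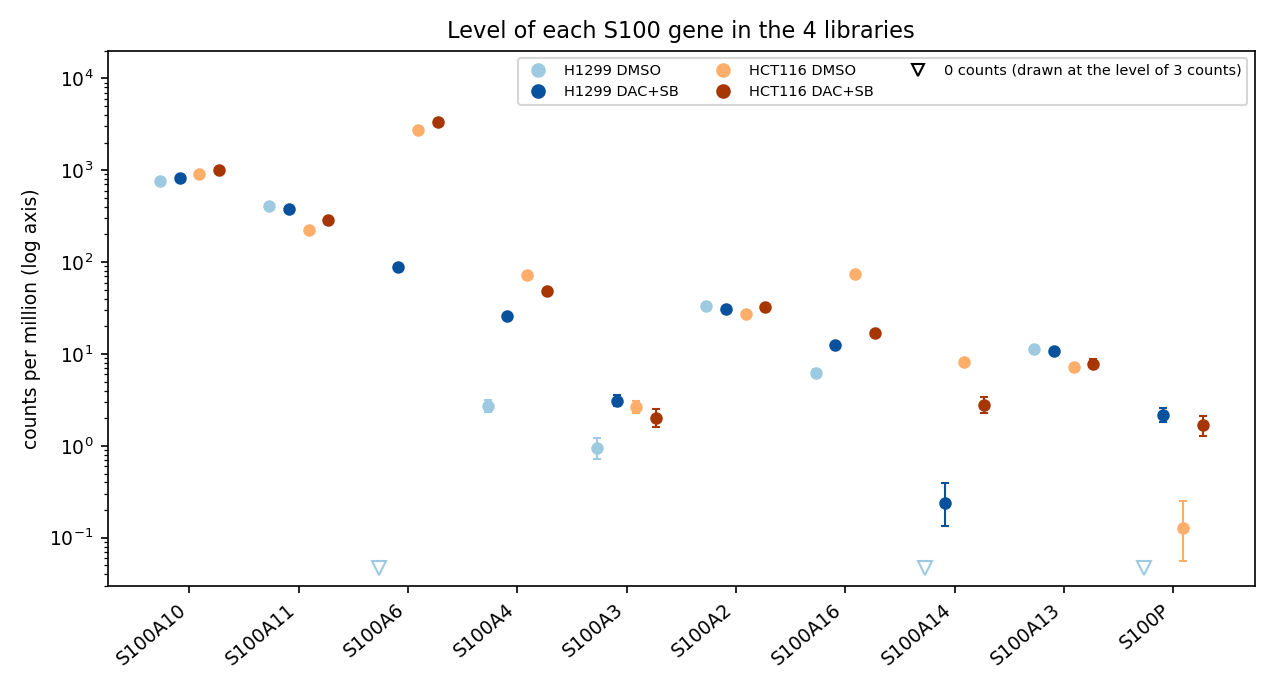
Level of each S100 gene in CPM on a log axis, in the 4 libraries (DMSO marks the control libraries and DAC+SB the treated ones), with the genes in chromosomal order and S100P last. Bars are exact Poisson 95% intervals and open triangles are 0 counts drawn at the level of 3 counts. S100A6 ran from 0 counts in control H1299 to 3335 CPM in treated HCT116, while S100A10 stayed between 763 and 1014 CPM.

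S100A6, or calcyclin, is a small cytosolic protein that binds CACYBP and annexins and is abundant in many epithelia and fibroblasts. It had 0 counts in all 3578 control H1299 cells, 5569 counts in treated H1299, 171505 in control HCT116 and 129807 in treated HCT116. As levels these were 0, 89.2, 2738 and 3335 CPM. H1299 without inhibitors thus had no count, treated H1299 an intermediate level, and both HCT116 libraries the highest levels. Taken as 3 counts of the total, the count of 0 allows a level of up to 0.0465 CPM and a share of up to 0.0838% of cells with a count. Setting the 0 to 3 counts gave a bound of 1919-fold for S100A6 with DAC+SB in H1299, with a lower counting limit of 1560-fold. In HCT116 S100A6 was 1.22-fold (1.21 to 1.23) higher with DAC+SB. Treated H1299 remained 37.4-fold (36.4 to 38.4) below treated HCT116. The bound for H1299 assumes that no feature of the gene went unlisted. The table lists numbered features of a gene only from 10 counts in a library, and the unnumbered feature of S100A6 alone went from 0 to 1916 counts.

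The S100A6 signal of treated H1299 was found in many cells and spread unevenly among them. A count was found in 1720 of 3726 cells (46.2%, 44.6 to 47.8), with 3.24 counts per positive cell and at most 74 in one cell. The 5% of cells with most S100A6 counts held 44.0% of them. Among the other members in treated H1299 this share ran from 17.7% for S100A10 to 100% for S100A3, counted in 4.59% of cells. The share thus depends on how many cells carry a count, and alone it does not measure unevenness. HCT116 markers were also higher in this library, at 42.0 CPM in sum. Of the 10, 6 reached 100 counts, all of them from 51 counts or fewer in control H1299, and GRHL2 was at 0. CLDN3, a tight-junction claudin, went from 51 to 1354 counts and EPCAM from 1 to 279. LGALS4, another of the 10, did not set the control lines apart, with 3 counts in control H1299 and 5 in control HCT116. In HCT116 the same markers summed to 191 CPM with DMSO and 107 CPM with DAC+SB, with 7 lower and 3 higher. In the 2172 treated H1299 cells without any HCT116 marker, S100A6 was 79.9 CPM and was counted in 42.0% of cells, at a median depth of 14327 counts. In the 381 cells with 2 or more of these markers it was 96.1 CPM and was counted in 57.5% of cells, at a median depth of 20328. Sorted the other way, the markers summed to 37.4 CPM in cells with no S100A6 count, 46.4 CPM in cells with 1 to 9 and 55.3 CPM in the 93 cells with 10 or more, at median depths of 14878, 16553 and 18683. The part of the markers and of depth in these differences was not tested. Those 93 cells all had VIM counts, at 1458 CPM. VIM was 2282 CPM in all cells of control H1299, 1151 CPM in treated H1299, 47.0 CPM in control HCT116 and 265 CPM in treated HCT116. The 10 H1299 markers did not move as one. Their sum was 3080 CPM in control and 1653 CPM in treated H1299, with 6 lower and 4 higher: the ratio was 0.504 for VIM and 0.104 for AXL, but 37.9 for SPARC (16 and 586 counts) and 3.97 for FN1. In HCT116 the sum was 380 and 397 CPM, with a ratio of 5.64 for VIM, 0.0971 for AXL, 0.222 for CAV1 and 0.301 for CALD1. S100A6 in treated H1299 was 2.68% of its level in treated HCT116, and the marker genes stood between 0% for GRHL2 and 173% for CLDN3. With the 381 cells left out, a choice made after seeing the data, the log2 bound was 10.89 in place of 10.91.

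S100A4 is known from metastatic and mesenchymal cells, where it binds the non-muscle myosin heavy chain MYH9. Its counts were 176 in control H1299, 1635 in treated H1299, 4528 in control HCT116 and 1887 in treated HCT116. The levels were 2.73, 26.2, 72.3 and 48.5 CPM, so that control H1299 lay far below the other 3 libraries and the lines drew closer under the inhibitors. S100A4 was 9.60-fold (8.21 to 11.3) higher with DAC+SB in H1299, while its ratio was 0.671 (0.635 to 0.708) in HCT116. The log2 ratios were 3.26 and -0.58, and their difference was 3.84 (3.60 to 4.08). HCT116 exceeded H1299 26.5-fold under DMSO and 1.85-fold under DAC+SB.

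S100A3, a zinc- and calcium-binding protein of the hair cuticle, lies beside S100A4 and within its longest annotated transcript. It had 61, 194, 166 and 79 counts in control H1299, treated H1299, control HCT116 and treated HCT116, or 0.945, 3.11, 2.65 and 2.03 CPM. control H1299 was again the lowest. The ratio was 3.29 (2.45 to 4.46) in H1299 and 0.766 (0.578 to 1.01) in HCT116, where the interval included no change. S100A5, the gene on the other side of S100A4 and not among the 10, had 4 counts in control and 42 in treated H1299, and 23 and 15 in HCT116.

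S100A16 and S100A14 are neighbours known from epithelial tissues. S100A16 had 401, 786, 4680 and 653 counts in the same order, or 6.21, 12.6, 74.7 and 16.8 CPM. control HCT116 stood apart above the other 3 libraries. The treated libraries differed from their controls in opposite directions, with a ratio of 2.03 (1.79 to 2.29) for H1299 and of 0.225 (0.207 to 0.244) for HCT116. The log2 ratios were 1.02 and -2.16, and they differed by 3.17 (2.96 to 3.38). The HCT116 excess over H1299 shrank from a log2 ratio of 3.59 (3.44 to 3.74) under DMSO to 0.41 (0.26 to 0.57) under DAC+SB.

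For S100A14 control HCT116 was again the highest library and control H1299 the lowest. It had 0 counts in control H1299, 15 in treated H1299, 512 in control HCT116 and 109 in treated HCT116, or 0, 0.240, 8.17 and 2.80 CPM. The ratio in HCT116 was 0.343 (0.276 to 0.422). In H1299 the ratio was 5.17 with the 0 set to 3 counts, and its lower counting limit was 3.71. These counts were too few to enter the 4-fold calls. With the 0 set to 3 counts, HCT116 was 176-fold above H1299 under DMSO, with a lower counting limit of 142-fold. Under DAC+SB it was 11.7-fold (6.76 to 21.5) above H1299. As log2 ratios these were 7.46 and 3.54. Feature 1 of S100A14 was listed in neither H1299 library. Both values, and the treatment ratio in H1299, take it there as 0. Over the feature listed in both lines, the log2 bound was 5.28 under DMSO and the log2 ratio 1.73 under DAC+SB, where S100A14 was then below 4-fold.

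S100P, first found in placenta and known from several carcinomas as a partner of ezrin, was the 1 member higher with DAC+SB in both lines by more than 4-fold. It had 0 counts in control H1299 and 136 in treated H1299, and 8 in control HCT116 and 65 in treated HCT116. The levels were 0, 2.18, 0.128 and 1.67 CPM, so both treated libraries lay above both untreated ones. The bound in H1299 was 46.9-fold higher, with a lower counting limit of 37.6-fold. In HCT116 the ratio was 13.1 (6.26 to 31.6), below the 100 counts set for a call. Over features listed in both libraries compared, the HCT116 log2 ratio was 1.86 in place of 3.71, and the H1299 bound 4.16 in place of 5.55. The feature used for that bound had 52 counts in treated H1299, so S100P no longer entered the 4-fold calls there. Few cells carried S100P: 106 of 3726 in treated H1299 and 34 of 4327 in treated HCT116.

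S100A10, which holds no calcium and pairs with annexin A2, varied little. Its counts were 49238, 51259, 56924 and 39459 in the order above, and its levels 763, 821, 909 and 1014 CPM. The treatment ratio was 1.08 (1.06 to 1.09) in H1299 and 1.12 (1.10 to 1.13) in HCT116. These intervals are narrow because the counts are high, and nothing here measures the spread between cultures.

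S100A11, a partner of annexin A1, was lower in HCT116 than in H1299, and its treatment ratios went in opposite directions in the lines. It had 26440, 23784, 14008 and 11332 counts, or 410, 381, 224 and 291 CPM. The treatment ratio was 0.930 (0.914 to 0.946) in H1299 and 1.30 (1.27 to 1.33) in HCT116. S100A2, a gene of basal epithelial cells, had 2161, 1917, 1688 and 1254 counts, or 33.5, 30.7, 26.9 and 32.2 CPM. Its treatment ratio was 0.917 (0.862 to 0.975) in H1299 and 1.20 (1.11 to 1.29) in HCT116. All 4 libraries lay within 1.5-fold of each other for S100A2, and within 2-fold for S100A11.

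S100A13, which takes part in the export of FGF1 and IL1A, had 723, 674, 448 and 304 counts under its own name, or 11.2, 10.8, 7.15 and 7.81 CPM. The intervals of both treatment ratios included no change: the H1299 ratio was 0.964 (0.866 to 1.07) and the HCT116 ratio 1.09 (0.941 to 1.27). Between 93.0% and 97.6% of the counts that name S100A13 stood under a name joined with another gene, RP1-178F15.5_S100A13. With these added, the levels were 159, 205, 242 and 326 CPM and the log2 treatment ratios 0.36 (0.33 to 0.40) in H1299 and 0.43 (0.40 to 0.47) in HCT116, both clear of 0. The order of the lines then reversed, with log2 ratios of HCT116 over H1299 of 0.60 under DMSO and 0.67 under DAC+SB in place of -0.65 and -0.47.

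Across the family, 3 members were at least 4-fold higher with DAC+SB in H1299 (S100A4, S100A6 and S100P) of 9 with enough counts, beside 11% of the 14610 genes compared, and none was at least 4-fold lower, beside 0.349%. In HCT116 no member with enough counts was at least 4-fold higher, beside 9.63% of 13539 genes, and S100A16 was the 1 of 9 at least 4-fold lower, beside 3.69%. S100A6 and S100P had 0 counts in control H1299, so their call was fixed by the 100-count minimum. The members were picked with these ratios known, so the shares are not evidence about the family. The median log2 ratio of the 10 members was 1.37 in H1299 and 0.14 in HCT116, beside -0.07 and -0.23 over all genes compared. The genes compared all had 100 or more counts in the higher library, while the members' medians include S100A14 in H1299 and S100P in HCT116, which did not. Over the other 9 members the medians were 1.02 and 0.13. The summed level of the 10 members was 1227 CPM in control and 1377 CPM in treated H1299, and 4062 and 4751 CPM in HCT116. These sums hold S100A13 under its own name alone, without the 9554 to 14690 counts per library under its joined name. Along the cluster, S100A6, S100A4, S100A3, S100A16 and S100A14 were higher with DAC+SB in H1299 beyond counting error, and S100A2 between them was lower. S100A13 was within it under its own name and higher with its joined name added (0.36).

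**Figure D2:**
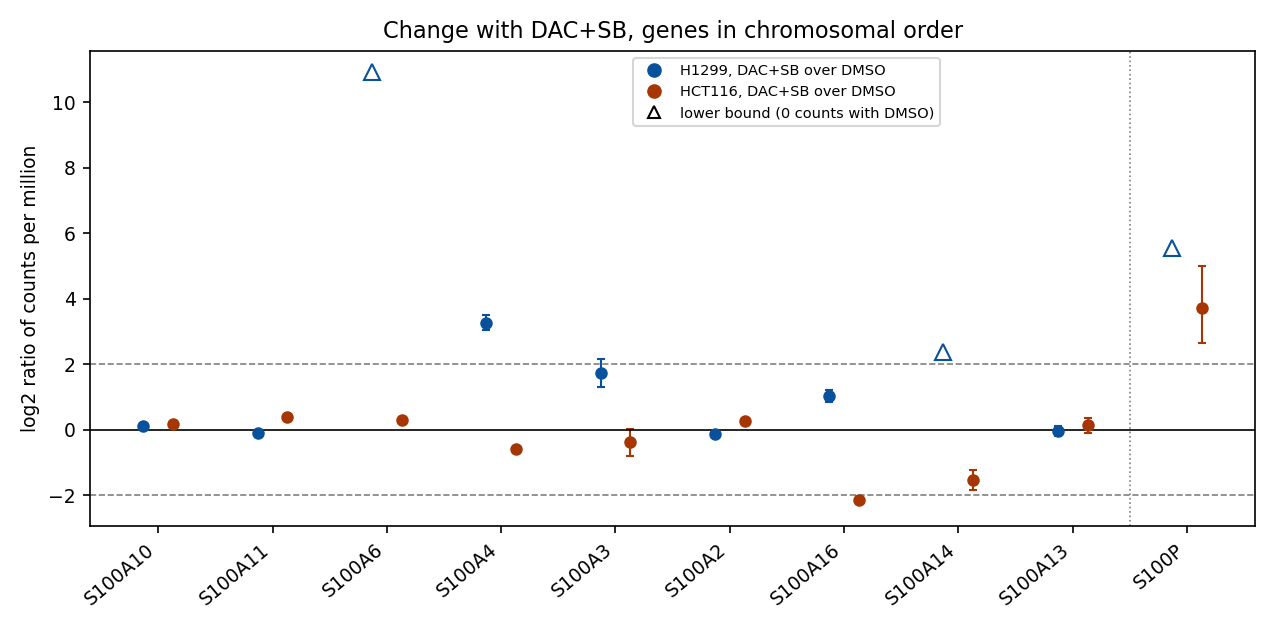
Log2 ratio of DAC+SB over DMSO for each member in H1299 and HCT116, in chromosomal order, with S100P of chromosome 4 right of the dotted line. Bars are 95% counting intervals, open triangles are lower bounds where DMSO had 0 counts, and dashed lines mark 4-fold. S100A4 and S100A16 lay above 0 in H1299 (3.26 and 1.02) and below 0 in HCT116 (-0.58 and -2.16).

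The share of cells with a count was compared after each cell was thinned at random to 3300 counts, which left out 402 treated HCT116 cells below that depth. S100A6 was then counted in 0% of control H1299 cells, 18.7% (17.5 to 20.0) of treated H1299 cells, 99.4% of control HCT116 cells and 98.9% of treated HCT116 cells. In treated H1299, 3028 thinned cells had no S100A6 count, 493 had 1, 127 had 2 and 78 had 3 or more. In HCT116 the median thinned cell had 8 counts with DMSO and 9 with DAC+SB, with 5% of cells above 19.15 and 26 counts.

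S100A4 was counted in 1.01% (0.706 to 1.39), 8.11% (7.25 to 9.03), 17.6% (16.4 to 18.9) and 13.1% (12.1 to 14.2) of thinned cells in control H1299, treated H1299, control HCT116 and treated HCT116. S100A16 was counted in 1.65%, 3.49%, 18.6% and 4.74% of cells, which is the order of its levels. Unthinned, these shares were 4.25%, 28.2%, 45.0% and 26.9% for S100A4 and 6.20%, 15.0%, 56.0% and 11.5% for S100A16. S100A10 was counted in 85.2% to 88.5% of thinned cells of every library. For S100A11, detection went from 68.8% to 59.5% in H1299 and from 50.1% to 54.2% in HCT116. The median thinned cell carried counts of 2 of the 10 members in both H1299 libraries and of 3 in both HCT116 libraries. S100A13 entered these numbers, and the pairs of members below, under its own name alone, which leaves out most counts that name it. No cell type that should lack these genes was present within a library, and control H1299, with no S100A6, S100A14 or S100P count, was the only reading of their background.

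**Figure D3:**
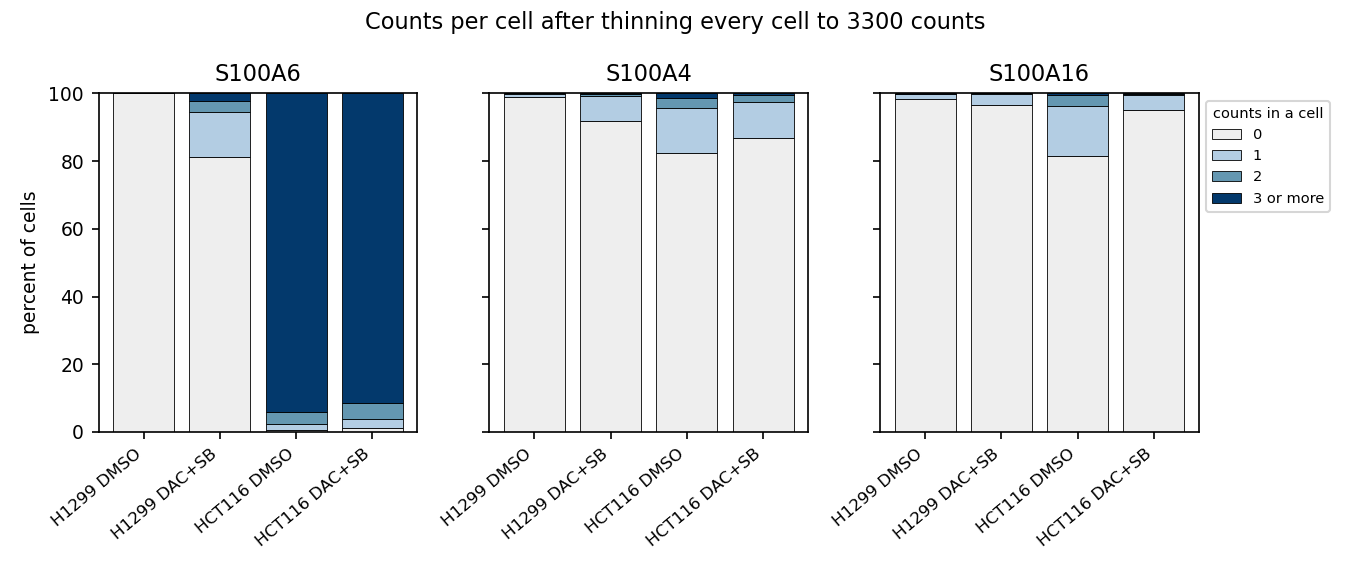
Percent of cells with 0, 1, 2 and 3 or more counts of S100A6, S100A4 and S100A16 in each library, with every cell thinned to 3300 counts. S100A6 had no count in control H1299, was counted in 18.7% of treated H1299 cells and had 3 or more counts in most HCT116 cells.

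Within treated H1299, cells with S100A6 were compared with cells without it on the other members, after thinning. S100A4 was counted in 11.6% (9.32 to 14.2) of the 698 cells with S100A6 and in 7.30% (6.40 to 8.28) of the 3028 without. For the other members the intervals overlapped: S100A16 was counted in 4.01% and 3.37%, S100A2 in 10.9% and 8.75%, and S100P in 0.860% and 0.826%. The cells with S100A6 had a median TE share of 2.79% against 2.49%, a median of 15122 counts against 15992 and a median mitochondrial share of 8.95% against 8.86%. The part of these measures in the S100A4 difference was not tested. A share says little for S100A10, counted in 85.7% and 85.0%, since most cells have it. In mean counts per thinned cell, S100A10 had 3.0 in cells with S100A6 and 2.57 in cells without, and S100A11 had 1.25 and 1.08.

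Every pair of members was compared in this way where at least 30 cells fell on each side, and a pair was counted where the intervals parted in at least one of the 2 ways of splitting it. That was so for 1 of 39 pairs in control H1299, 3 of 45 in treated H1299, 3 of 42 in control HCT116 and 4 of 44 in treated HCT116. Split both ways, 1, 3, 1 and 3 of these parted. Pairs of other genes were not compared in this way, so these counts are no result about the members. S100A10 with S100A11 was the 1 pair that parted in all 4 libraries. Among cells with and without S100A10, S100A11 was counted in 70.3% and 59.9% in control H1299, 61.0% and 51.0% in treated H1299, 51.1% and 42.2% in control HCT116, and 55.8% and 44.4% in treated HCT116. The cells with and without S100A10 had median depths of 17252 and 17974 counts in control H1299, 16037 and 14669 in treated H1299, 16302 and 16080 in control HCT116, and 9385 and 7708 in treated HCT116. The cells with S100A10 were thus the shallower ones in control H1299 and the deeper ones in the other libraries. Their median mitochondrial share was below that of the cells without S100A10 in all 4 libraries. The part of depth and of mitochondrial share in the S100A11 difference was not tested.

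The third pair that parted in treated H1299, chosen for description after its values were seen, was S100A4 with S100A16. S100A4 was counted in 15.4% (9.66 to 22.8) of the 130 treated H1299 cells with S100A16 and in 7.84% (6.98 to 8.77) of those without. The cells with S100A16 had a median of 17570 counts against 15697 and a median TE share of 2.79% against 2.54%, and the part of these in the difference was not tested. In control H1299, with 59 cells that had S100A16, the same comparison gave 3.39% (0.413 to 11.7) and 0.966% (0.670 to 1.35). In control HCT116 it gave 17.2% (14.4 to 20.3) and 17.7% (16.3 to 19.1). In treated HCT116 it gave 16.1% (11.2 to 22.2) and 12.9% (11.9 to 14.1), and the 186 cells with S100A16 had a median of 11238 counts against 9091. The intervals parted in treated H1299 and overlapped in the other 3 libraries, and whether the libraries differ in this was not tested. Cells of 1 library share one culture and one capture.

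**Figure D4:**
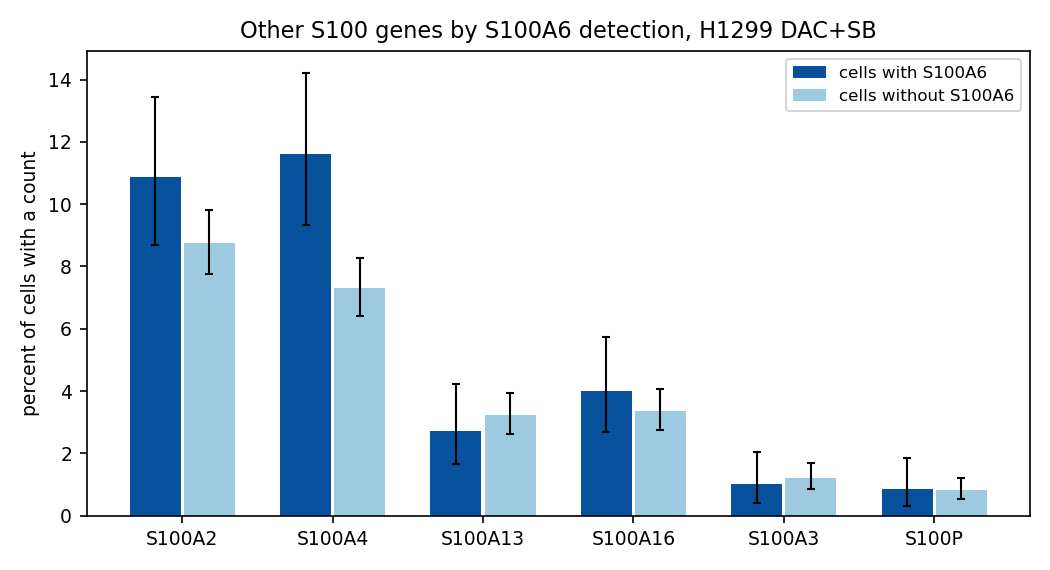
Percent of treated H1299 cells with a count of 6 other S100 genes, among the 698 cells with S100A6 and the 3028 without, thinned to 3300 counts per cell. Bars carry exact Clopper-Pearson 95% intervals, which part for S100A4 (11.6% and 7.30%) and overlap for the others.

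Each gene name in the table is split into a feature without a number and features numbered 1 or more. What these stand for is not given in the sources. For S100A2 feature 1 held 27.4% of counts in control H1299, 31.5% in treated H1299, 55.1% in control HCT116 and 77.6% in treated HCT116. Its feature 2 held 12.7%, 12.7% and 10.5% in the first 3 libraries and was not listed in treated HCT116. The level of S100A2 was similar in all libraries while the shares of its features differed between the lines. For S100A4 feature 1 held 41.5% and 57.0% of counts in H1299 and 80.6% and 81.7% in HCT116, and feature 2 was listed in control H1299 alone, with 42 counts. For S100A6 feature 1 held 65.6% in treated H1299 and 83.3% and 81.2% in HCT116. S100A10 and S100A11 drew on feature 1 for 84.0% to 92.6% of counts in every library. An unlisted feature is not known to be at 0, so these shares carry that limit.

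**Figure D5:**
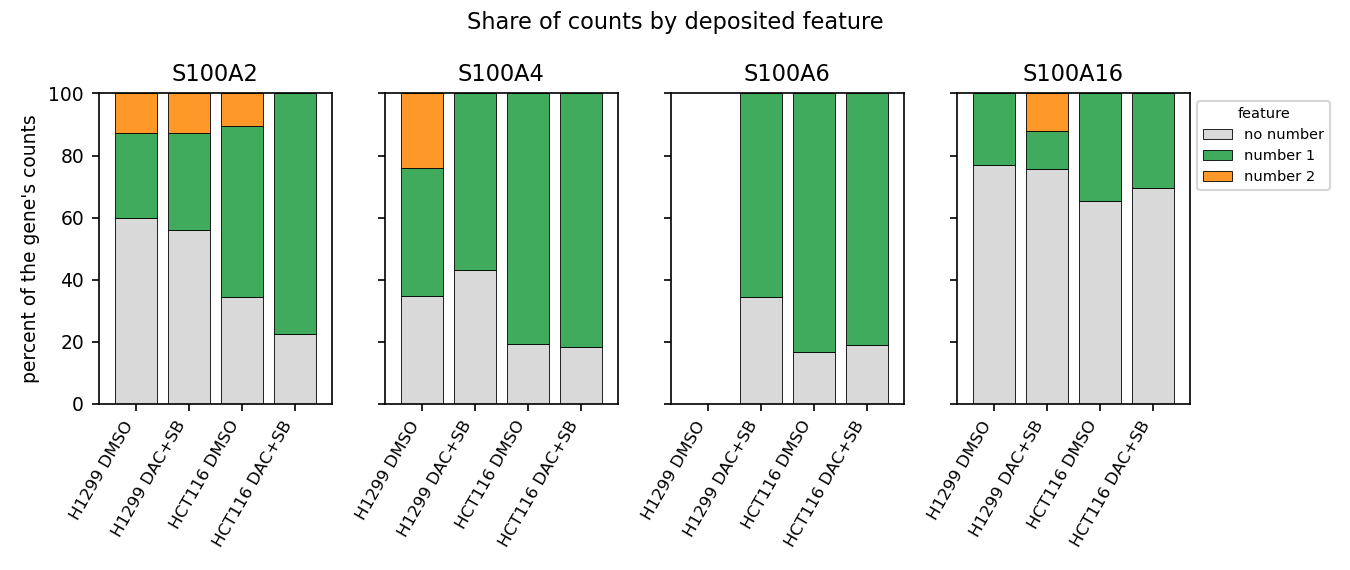
Percent of the counts of S100A2, S100A4, S100A6 and S100A16 in the feature without a number and in features 1 and 2, by library; S100A6 has no bar in control H1299, where it had 0 counts. Feature 1 of S100A2 held 27.4% in control H1299 and 77.6% in treated HCT116.

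Of the other 11 S100 genes examined, 3 had enough counts in H1299. All 3 reached 100 counts only in the treated library, from 10 or fewer in the control, so being at least 4-fold higher was fixed by that minimum and is not set against the 11% of all genes. S100B, a glial and melanocytic marker, went from 0 to 170 counts in H1299. S100Z went from 0 to 131 counts and S100A1, a gene of heart and muscle on the other strand of S100A13, from 10 to 167. None of the 11 reached 100 counts in either HCT116 library. There, S100A1 had 77 and 99 counts, S100B 11 and 70, and S100Z 0 and 25. S100A8 and S100A9, the subunits of calprotectin, had 0 counts in both H1299 libraries and 0 and 11, and 0 and 6, in HCT116. S100A7, psoriasin, had 0 counts in H1299 and 0 and 14 in HCT116.

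Of 16 genes of binding partners and receptors, 14 had enough counts in H1299 and 13 in HCT116. None of those with enough counts was at least 4-fold higher, beside 11% of genes in H1299 and 9.63% in HCT116, or lower, beside 0.349% and 3.69%. AHNAK, a giant scaffold that binds S100A10 with annexin A2, had log2 ratios of -1.04 in H1299 and -1.91 in HCT116. PPFIBP1, the liprin bound by S100A4, had 0.07 and -1.38, and the myosin heavy chain MYH9 had -0.96 and -1.35. CACYBP, the partner of S100A6, had -0.53 and -0.60, and ANXA2, the partner of S100A10, had -0.05 and 0.59. Below 100 counts in HCT116, FGF1 went from 7 to 88 counts, a ratio of 20.2 (9.42 to 51.8). The 3 and 20 counts of IL1A gave 10.7 (3.18 to 56.4). Both are cargo of the S100A13 export route. In H1299 FGF1 had 696 and 383 counts, a ratio of 0.569 (0.501 to 0.645).

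Of the 10 genes beside the cluster, 6 had enough counts in each line, and none of these 6 passed 4-fold, where 11% of all genes were higher and 0.349% lower by that much in H1299, and 9.63% and 3.69% in HCT116. A count of 0 among 6 genes is near those shares and is no result about the neighbours. Below 100 counts, NPR1, a natriuretic peptide receptor, had 9 counts in control and 72 in treated H1299, so that its ratio was 8.27 (4.12 to 18.8). Its 6 and 28 counts in HCT116 gave 7.51 (3.05 to 22.2). LOR, loricrin of the cornified envelope, went from 0 to 12 counts in H1299 and had 0 and 2 in HCT116. Its H1299 bound was 4.13-fold, with a lower counting limit of 2.87-fold. INTS3, a subunit of the Integrator complex, had log2 ratios of -0.75 in H1299 and -1.45 in HCT116, ILF2 had -0.07 and -0.66, and SLC27A3 had -0.07 and -0.73. Of 18 epidermal differentiation genes, 16 were at 0 in control H1299 and 16 in control HCT116. TCHH, trichohyalin, went from 29 to 126 counts in H1299 (log2 2.17), and LCE3D, a late cornified envelope gene, from 0 to 102 in HCT116. The log2 bound of LCE3D was 5.77, with a lower counting limit of 5.45. No other gene of that list reached 100 counts in either line.

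The genes whose pattern over the 4 libraries was nearest to a member were found by Euclidean distance in log2(CPM + 1), centred on each gene's mean, among 15505 genes. The nearest to S100A4 was SOX4 (0.178), and APOE (0.358) was the third. PDE9A (0.166) was nearest to S100A14, MMP9 (0.0440) to S100P, and AC009299.3 (0.185) to S100A16, with MYD88 (0.279) the third. The closest to S100A6, whose values spanned 11.70 on this log2 scale, were MT1E (2.11), PRDX2 (2.71) and GAL (3.05). The distance is not scaled to a gene's range, so a wide range alone can make it large. MT1E had the same order of libraries as S100A6, with 0.0310 CPM in control H1299 and 272 in treated H1299. In HCT116 MT1E was 1487 CPM with DMSO and 1588 CPM with DAC+SB. With 4 values per gene, such likeness describes these libraries only.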

How the data were processed

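Raw counts per feature and cell were deposited by the authors as 2 tables, for genes and for TE. The submitters' processing notes name STAR, CASAVA and GRCh38 (hg38). Not given in the sources used here are their roles, the annotation, the cell filter, and whether counts are of unique molecules. Cell names end in the library name, by which all 15289 cells were assigned and kept, without a doublet caller. Genes were summed over features that name 1 gene. Analyses used Python 3.11.15 with numpy 2.4.6, scipy 1.17.1 and pandas 2.3.3, and figures matplotlib 3.10.9. Intervals are 95%: exact Poisson for summed counts, Clopper-Pearson for shares, conditional binomial for ratios, and a normal approximation on the log scale for differences between lines. Thinning drew 3300 counts per cell without replacement (the lowest 10th percentile of depth, rounded down, seed 1). No difference was tested, since each group is 1 library. The members and gene lists were chosen with earlier results of these data known. One item of the lists is not reported here. All members are named. Outside the marker lists, up to 3 genes per list are named by rule, by largest ratio among those with 100 or more counts. S100A5, S100A7, S100A8, S100A9, CACYBP, ANXA2, FGF1, IL1A, NPR1, LOR and the markers were named after their values were seen. Alternatives changed the denominator, the weighting of cells, the features, the cells kept, the fold and the minimum count.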

Additional observations from a re-analysis of the deposited data

Results flagged for a closer look

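For 5 members the log2 ratio of DAC+SB over DMSO had opposite signs in the lines, with both counting intervals (or the bound) clear of 0. With 1 library per group, none of these differences was tested against the spread between cultures. S100A4 had 3.26 in H1299 and -0.58 in HCT116. S100A16 had 1.02 and -2.16. S100A14, its neighbour, had a bound of 2.37 in H1299, on 15 counts with feature 1 unlisted, and -1.55 in HCT116. S100A2 had -0.13 and 0.26, and S100A11 had -0.11 and 0.38, both less than 1.5-fold in either line.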

How the results depend on the processing

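Of the member ratios recomputed under each alternative, 299 stayed within the counting interval of the value reported and the other 61 moved outside it. The sign changed in 5. In 2 of these the reported interval was clear of 0: S100A13 of HCT116 over H1299 with joined names added (0.60 under DMSO and 0.67 under DAC+SB). In the other 3 it included 0: S100A13 in H1299 was 0.36 with joined names in place of -0.05, and, with numbered features restricted to those found in both libraries, S100A13 in HCT116 was -0.41 in place of 0.13 and S100A3 in HCT116 0.30 in place of -0.38. The count of members at least 4-fold higher in HCT116 under DAC+SB was 1 (S100A6) with each cell weighted equally and under that restriction of features. At a 2-fold threshold, 5 members were higher with DAC+SB in H1299 (S100A3, S100A4, S100A6, S100A16 and S100P) and 2 were lower in HCT116 (S100A14 and S100A16). With a minimum of 10 counts or of 1 count, 1 member (S100P) was at least 4-fold higher in HCT116. The restriction of features left 2 members (S100A4 and S100A6, without S100P) at least 4-fold higher in H1299, and the H1299 bound of S100A6 was then 9.37 in place of 10.91. The shares of all genes under these alternatives are not given here, so these counts are no result about the members. The other counts of members stayed within 1.5 times. The causes were not tested. Leaving out barcodes found in more than 1 library, chosen after seeing the data, gave 10.87 for S100A6. Shares of cells rest on depth: S100A6 in treated H1299 was 46.2% unthinned, 18.7% at 3300 counts and 10.1% at 1650. No paired analysis was possible because each group is 1 library.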
